A study of Mus musculus with 8 samples.

Results

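The genes described here encode non-collagen proteins of the tectorial membrane and of related acellular gels of the inner ear: Tecta, Tectb, Otoa, Otog, Otogl, Ceacam16, Epyc and Oc90. They were chosen by name, and all 8 were found among the 41079 genes of the deposited count tables. Total RNA, depleted of ribosomal RNA, was sequenced from the organ of Corti, the strip of hair cells and supporting cells along the cochlea, dissected from mice at postnatal day 0. The 4 libraries labelled knockout carry the genotype Emx2-cre with floxed Prox1, in which Cre follows Emx2 expression, and the other 4 are labelled wildtype with no allele named. The labels do not say whether the wildtype animals carried Cre or a floxed allele, nor how many animals gave each library, so p-values measure the spread between libraries, which may be technical.

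The tectorial membrane is a gel that lies over the hair cells and couples their bundles to sound-driven motion. Its fibrils of collagen are embedded in a striated sheet built from the glycoproteins alpha-tectorin and beta-tectorin, the products of Tecta and Tectb, which carry a zona pellucida domain, a module through which secreted proteins polymerise. The epithelium of the newborn cochlea, above all the greater epithelial ridge medial to the hair cells, secretes these proteins while the membrane is being built. Otoancorin (Otoa) anchors the membrane to the spiral limbus, otogelin and otogelin-like protein (Otog and Otogl) are mucin-like proteins of the tectorial membrane and of the gels over the vestibular sensory patches, and CEACAM16 joins the striated sheet as the membrane matures. Epiphycan (Epyc) is a small leucine-rich proteoglycan, and otoconin-90 (Oc90) is the main protein of otoconia, the mineral particles of the vestibular organs.

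Depth and the identity of the libraries bear on all values below. The libraries labelled knockout held 29908965 to 32613549 counts and the wildtype libraries 32863533 to 42318233. Prox1, the targeted gene, averaged 139 ± 5.71 CPM (counts scaled to a common library total) in the libraries labelled knockout and 111 ± 4.29 CPM in wildtype (SD, n = 4 each). That difference, 0.33 ± 0.05 on the log2 scale (SE; edgeR adjusted p = 0.0298), goes against the label. A count over the whole gene does not tell whether floxed exons were deleted, so directions are given for the libraries as labelled. Markers of the labelled tissue were present. All 8 hair cell genes, 7 supporting cell genes and 4 greater epithelial ridge genes had counts and passed the low-count filter. Passing that filter cannot show how pure the dissection was, since all 4 blood genes and all 5 periotic mesenchyme genes passed as well. Summed blood genes reached at least 1408 CPM in every library, and summed mesenchyme genes at least 943 CPM. The hair cell sum was at most 597 CPM. Genes of the stria vascularis, which lies outside the organ of Corti, stood apart in some wildtype libraries: the summed level of 8 such genes was 19.6 to 26.7 CPM in the libraries labelled knockout, against 96.0, 42.5, 62.4 and 23.7 CPM in wildtype libraries 1 to 4.

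The start regions of the tectorin pair, whose levels and ratio are compared further on, are shown from RefSeq (GRCm38.p6), each 300 bases long and lying mostly upstream of an annotated start. Capitals mark matches to TATAA, the core of a TATA box (given strand), to ACAAAG, a core bound by HMG-box factors such as the SOX family, and to AGATAA, a core bound by GATA factors, the last pair on both strands.
Tectb, chr19:55180476-55180775, plus strand: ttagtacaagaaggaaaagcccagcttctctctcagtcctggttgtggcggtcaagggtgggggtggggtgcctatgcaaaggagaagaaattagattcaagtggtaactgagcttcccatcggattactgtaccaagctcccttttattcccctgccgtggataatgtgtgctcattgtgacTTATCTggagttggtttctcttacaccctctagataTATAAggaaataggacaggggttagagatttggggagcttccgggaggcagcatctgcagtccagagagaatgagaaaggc
Tecta, chr9:42401641-42401940, minus strand: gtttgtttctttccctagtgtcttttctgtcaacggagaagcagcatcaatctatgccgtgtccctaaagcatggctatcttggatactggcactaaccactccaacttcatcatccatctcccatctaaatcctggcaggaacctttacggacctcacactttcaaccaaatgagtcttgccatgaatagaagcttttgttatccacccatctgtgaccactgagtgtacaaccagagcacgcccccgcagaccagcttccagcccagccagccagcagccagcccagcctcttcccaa
Tecta, chr9:42399898-42400197, minus strand: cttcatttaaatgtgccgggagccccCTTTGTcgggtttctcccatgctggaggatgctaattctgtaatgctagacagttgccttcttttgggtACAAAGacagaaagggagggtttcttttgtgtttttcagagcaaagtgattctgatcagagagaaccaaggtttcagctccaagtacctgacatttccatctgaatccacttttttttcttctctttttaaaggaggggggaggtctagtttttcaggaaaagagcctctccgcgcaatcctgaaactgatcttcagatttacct
The Tectb window held TATAA at position -31 from the start and AGATAA, read on the other strand as TTATCT, at -67. Of the Tecta windows, the outer held no match to these letters and the inner one held ACAAAG at -155 and, on the other strand as CTTTGT, at -224. Start regions of 5 of the 8 genes were in the table, 7 windows in all, since Tecta and Epyc have a pair each. TATAA stood in 1 of the 7 windows and in 17.5% of all 32851 windows, ACAAAG in 3 and in 18.7%, and AGATAA in 3 and in 11.2%. The windows with AGATAA were that of Tectb and both of Epyc, so they are not all from separate genes. The E-box CAGCTG, searched as well, stood in 0 of the 7 and in 16.3% of all windows. These matches describe the letters of the windows, and binding was not measured.

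Transcripts of these genes made up 1.03 to 1.12% of all counts in the libraries labelled knockout and 1.02 to 1.20% in wildtype. Tecta alone, with 5358 to 6097 CPM over the 8 libraries, ranked 6 among all 41079 genes by mean CPM. Levels of different genes are compared per length, as CPM per kilobase (kb) of merged exons. On that scale Tecta had 767 ± 32.2 in the libraries labelled knockout and 774 ± 48.9 in wildtype, and Oc90 had 674 ± 169 and 722 ± 156 in the same order (SD, n = 4 each). They held ranks 11 and 14 among 14729 tested protein-coding genes with a known length. The ranges of these neighbours overlapped, and Tecta was the higher of the pair in 5 of 8 libraries. Tectb followed with 340 ± 44.4 CPM per kb in the libraries labelled knockout and 375 ± 36.8 in wildtype (rank 36), and Epyc with 300 ± 25.6 and 306 ± 23.2 (rank 46). Tectb lay above Epyc in each of the 8 libraries although their ranges over all libraries overlapped. Otog had a mean of 92.7 CPM per kb over the 8 libraries (rank 215), Otoa 56.3 (rank 404) and Otogl 35.8 (rank 804), and the ranges of these 3 did not overlap one another. Ceacam16, at 0.0974 CPM per kb, lay 367-fold below Otogl. The plot of length-scaled levels shows the 7 abundant genes spread over a span from Otogl to Tecta, with Ceacam16 far below.

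**Figure D1:**
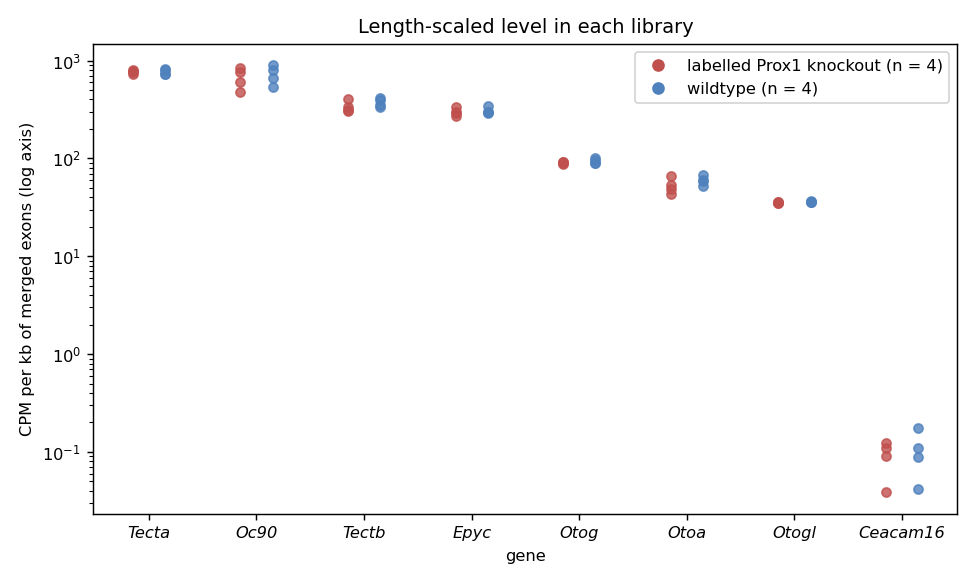
CPM per kb of merged exons (log axis) of each gene in each library, with libraries labelled Prox1 knockout left of wildtype for every gene (points are libraries, n = 4 each). Tecta and Oc90 overlap at the top, Tectb and Epyc follow, and Ceacam16 lies far below the rest at 0.0974 CPM per kb on average.

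None of the 7 tested genes passed the test between the groups. The quasi-likelihood test of edgeR was adjusted by Benjamini and Hochberg's method over 20581 genes. At an adjusted p of 0.05, 0 of the 7 passed, beside 0.0923% of all genes tested (0.034% higher and 0.0583% lower), and 0 of the 7 had an unadjusted p under 0.05, beside 7.55% of all genes. DESeq2 and limma-voom also called 0 of the 7. In none of the 7 did the groups separate without overlap, beside 3.69% of all genes. A p that misses the threshold does not show equal levels, so the interval of each difference is given below.

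The tectorins come first. Tecta had 5930, 5746, 5358 and 5700 CPM in libraries 1 to 4 labelled knockout, against 5399, 5455, 6097 and 6002 CPM in wildtype libraries 1 to 4. The groups overlapped almost fully, with both ends of the wildtype range close to those of the libraries labelled knockout. The log2 fold change was -0.01 ± 0.08 (SE), and its 95% confidence interval ran from -0.19 to 0.17, or from 0.874-fold to 1.12-fold (adjusted p = 0.972, edgeR). Tectb had 1284, 1204, 1163 and 1541 CPM in the libraries labelled knockout and 1356, 1276, 1523 and 1576 CPM in wildtype. Library 4 labelled knockout lay with the upper wildtype libraries, and the other 3 lay at or under the lower part of the wildtype range. The log2 fold change was -0.14 ± 0.10 (SE), with an interval from -0.36 to 0.07 (0.781-fold to 1.05-fold; adjusted p = 0.703, edgeR). For Tectb it was -0.24 without library 4 labelled knockout (adjusted p = 0.266, edgeR) and -0.095 without wildtype library 4. The lowest count in a library was 174847 for Tecta and 37844 for Tectb.

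The tectorin ratio does not depend on how libraries are scaled. There were 4.62, 4.77, 4.61 and 3.70 Tecta counts per Tectb count in libraries 1 to 4 labelled knockout, against 3.98, 4.28, 4.00 and 3.81 in wildtype libraries 1 to 4. Thus 3 libraries labelled knockout lay above all wildtype libraries and the other one below all of them. The share of counts in long non-coding RNA genes, a property of library composition, was 6.77, 6.59, 6.504 and 5.81% in libraries 1 to 4 labelled knockout and 5.78, 5.62, 5.96 and 5.42% in wildtype. The same 3 libraries lay above all wildtype libraries in that share and library 4 lay among them, and its part in the ratio was not tested. The log2 ratio was 2.14 ± 0.17 in the libraries labelled knockout and 2.01 ± 0.07 in wildtype (SD, n = 4 each), a difference of 0.13 (two-sided exact permutation p = 0.20, or 0.40 after Benjamini-Hochberg adjustment over the 2 ratios computed; the smallest p of this design is 0.0286). Library 4 labelled knockout decides this value: without it the difference was 0.22 (exact permutation p = 0.0286, not adjusted). That p is the smallest that design can give. It follows from leaving out the only library labelled knockout not above all wildtype libraries, and is no separate evidence of a difference. A count ratio of 2 genes shows only unequal change, and cannot say which gene differed.

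Otog and Otogl, the mucin-like pair, varied least. Otogl had 306, 305, 315 and 316 CPM in the libraries labelled knockout and 317, 311, 322 and 315 CPM in wildtype. The highest library stood 1.04-fold above the lowest in the libraries labelled knockout and 1.03-fold in wildtype. On the log2 scale the difference was -0.03 ± 0.04 (SE), its interval running from -0.12 to 0.07 (0.918-fold to 1.05-fold; adjusted p = 0.873, edgeR), the narrowest of the 7. Otog had 960, 935, 916 and 958 CPM in the libraries labelled knockout and 932, 939, 1046 and 991 CPM in wildtype, with the upper 2 wildtype libraries above all others. The log2 fold change of Otog was -0.05 ± 0.06 (SE; interval -0.18 to 0.08; adjusted p = 0.792, edgeR). There were 2.91 to 3.14 Otog counts per Otogl count in the libraries labelled knockout and 2.94 to 3.25 in wildtype. The log2 ratio differed by -0.02 (two-sided exact permutation p = 0.571, also after adjustment over the 2 ratios; n = 4 each), less than the SD of 0.04 and 0.07 within the groups.

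Otoa, the limbal anchor, had 361, 453, 406 and 561 CPM in the libraries labelled knockout and 508, 441, 491 and 577 CPM in wildtype. Libraries 1 and 3 labelled knockout lay below the wildtype range and the other 2 within it. The difference on the log2 scale was the lowest of the 7, -0.18 ± 0.12 (SE), and its interval ran from -0.44 to 0.08 (0.737-fold to 1.06-fold; adjusted p = 0.695, edgeR). It was -0.31 without library 4 labelled knockout (adjusted p = 0.242, edgeR), -0.11 with wildtype library 4 left out, and -0.092 with library 1 labelled knockout left out, where Tectb was the lowest of the 7 at -0.14. Without library 3 labelled knockout Oc90 was the lowest at -0.17, beside -0.14 for Otoa. Epyc had 744, 769, 701 and 856 CPM in the libraries labelled knockout and 753, 756, 873 and 754 CPM in wildtype. Here 1 library of each group was high (number 4 labelled knockout and number 3 of wildtype) and the remaining 6 lay between 701 and 769 CPM. The log2 fold change of Epyc was -0.03 ± 0.08 (SE; interval -0.20 to 0.13; adjusted p = 0.918, edgeR).

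Oc90, an otoconial gene, was close to Tecta in level per length and was the most variable of the 7. It had 904, 1153, 1476 and 1623 CPM in the libraries labelled knockout and 1264, 1028, 1708 and 1526 CPM in wildtype. Within the libraries labelled knockout the highest stood 1.79-fold above the lowest, and within wildtype 1.66-fold. The log2 fold change was -0.10 ± 0.18 (SE), and the interval from -0.49 to 0.29 (0.710-fold to 1.23-fold) was the widest of the 7 (adjusted p = 0.883, edgeR). Ceacam16 was close to the limit of detection, with 6, 6, 5 and 2 counts in the libraries labelled knockout and 11, 3, 5 and 6 counts in wildtype. It did not pass the low-count filter. Its means were 0.149 ± 0.0611 CPM in the libraries labelled knockout and 0.170 ± 0.0893 CPM in wildtype (SD, n = 4 each; two-sided exact permutation p = 0.714), and a difference was not detectable at this depth.

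**Figure D2:**
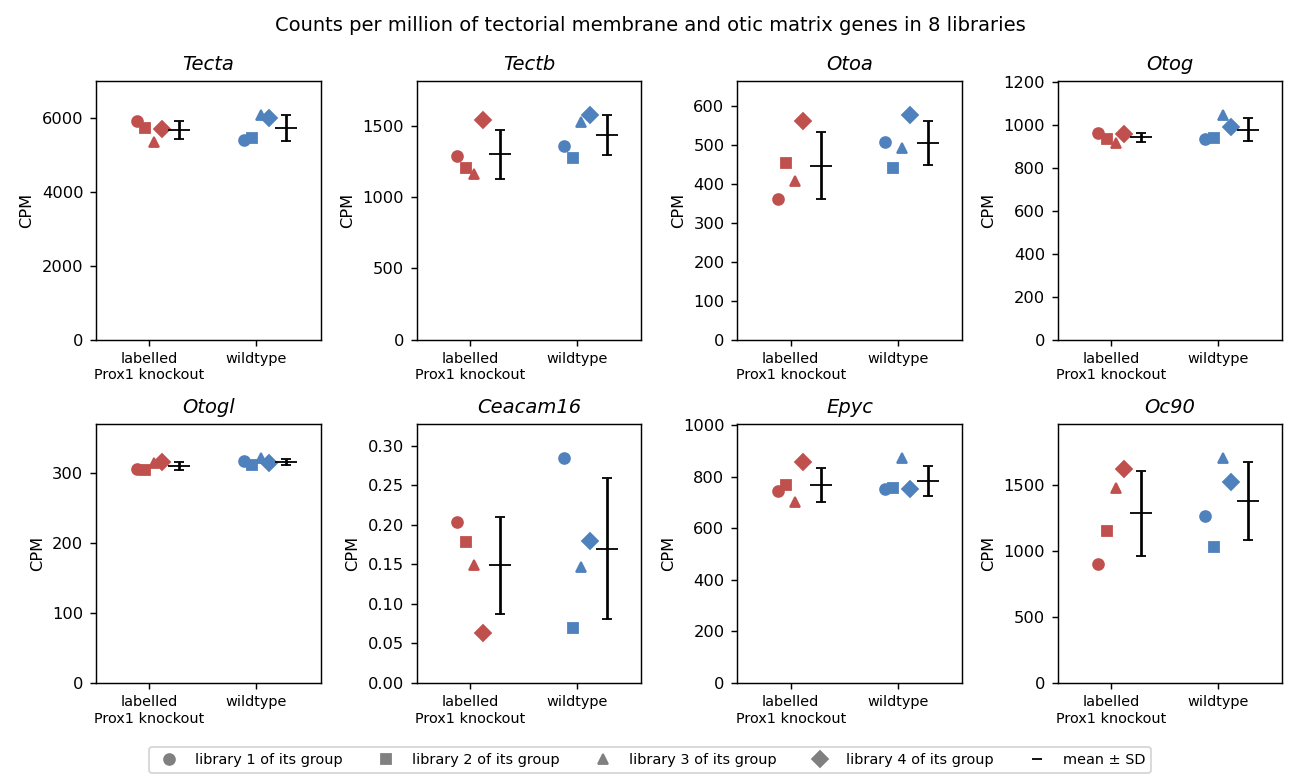
CPM of the 8 genes in each library (one panel per gene, axis from 0), with libraries labelled Prox1 knockout left of wildtype. Marker shapes give the library number within its group, and black bars the mean ± SD (n = 4). The groups overlap in every panel, Otogl is nearly flat at 305 to 322 CPM, and Oc90 spans 904 to 1708 CPM.

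**Figure D3:**
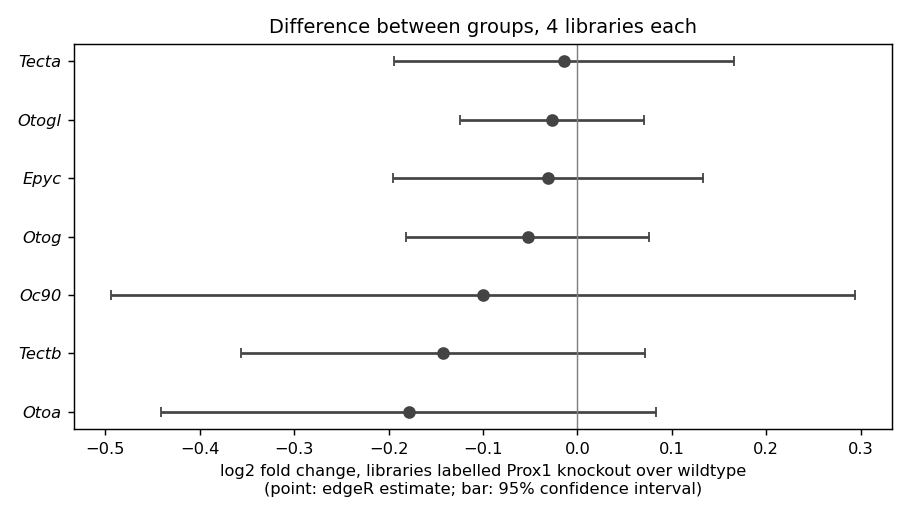
Log2 fold change of the 7 tested genes, libraries labelled Prox1 knockout over wildtype (x axis), with edgeR's estimate (point) and its 95% confidence interval (bar). Each interval includes 0, from the narrowest, Otogl at -0.12 to 0.07, to the widest, Oc90 at -0.49 to 0.29.

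All 7 estimates lay below 0, as did 50% of the genes tested. With upper-quartile scaling or library size alone 6 of 7 lay below 0, the exception being Tecta, and with the wildtype libraries 1 and 3 left out 5 of 7 did, the exceptions being Epyc and Oc90. Without wildtype library 3 alone 4 of 7 lay below 0, the exceptions being Tecta, Epyc and Oc90, and without library 3 labelled knockout 5 of 7 did, the exceptions being Tecta and Epyc. The authors' deposited DESeq2 table gave log2 fold changes between -0.18 (Otoa) and -0.02 (Tecta) for the same 7 genes, with adjusted p-values of 0.745 to 0.963, and no adjusted p for Ceacam16.

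The genes fell apart by how much they varied within a group. The within-group SD of log2 CPM was 0.02 for Otogl, 0.06 for Otog, 0.08 for Tecta, 0.11 for Epyc, 0.16 for Tectb, 0.22 for Otoa and 0.35 for Oc90. Among 2180 genes averaging 100 CPM or more the median was 0.08. Only 0.505% of them varied less than Otogl, whereas 94.2% varied less than Tectb, 97.4% less than Otoa and 98.9% less than Oc90. These 7 genes ranged from among the least to among the most variable abundant genes.

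**Figure D4:**
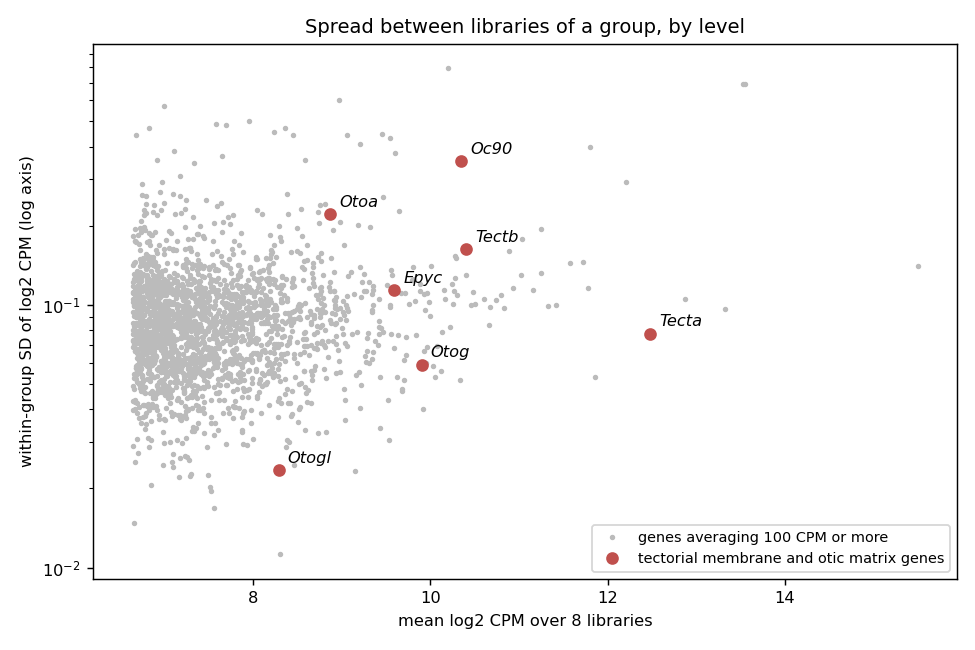
Within-group SD of log2 CPM (log axis) against mean log2 CPM for the 2180 genes averaging 100 CPM or more (grey) and the 7 abundant tectorial membrane and otic matrix genes (red). Otogl lies near the lower edge at 0.02, and Tectb, Otoa and Oc90 lie in the upper part at 0.16, 0.22 and 0.35.

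Some libraries were high or low for several of the genes. Wildtype library 3 held the highest value of 5 of the 7 genes and wildtype library 4 that of the other 2. The lowest values lay in library 3 labelled knockout for 4 genes, in library 1 for 2 and in library 2 for 1. How often each library was highest or lowest over all genes was not counted. A trait of these genes therefore cannot be told from a shift of the whole library. Tectb and Otoa were both high in library 4 labelled knockout (0.18 and 0.26 above their mean log2 CPM) and in wildtype library 4 (0.22 and 0.30 above it). Summed markers of the greater epithelial ridge were 713, 722, 716 and 831 CPM in libraries 1 to 4 labelled knockout and 828, 786, 917 and 862 CPM in wildtype. Summed hair cell markers were 529, 511, 502 and 558 CPM in libraries 1 to 4 labelled knockout and 558, 505, 572 and 597 CPM in wildtype. The hair cell sum was thus highest in library 4 of both groups, whereas the ridge sum was highest in library 4 labelled knockout and wildtype library 3. Abundant genes weigh most in such plain sums. Myo6 of the hair cell list averaged 251 CPM in the libraries labelled knockout and 260 CPM in wildtype, and Itih5 of the ridge list 346 and 417 CPM. The part of either tissue in the level of Tectb or Otoa was not tested, and in such bulk samples fewer cells of a type and less RNA per cell cannot be told apart. Summed supporting cell markers ranged over 925 to 1016 CPM in the libraries labelled knockout, against 897 to 1039 CPM in wildtype.

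For each of the 7 genes, the nearest library patterns were sought among 12457 other genes by the root mean square difference of centred log2 CPM over the 8 libraries. The nearest genes were picked for this closeness. A value under the median, or a shared high or low library, therefore follows from the choice and is not a separate result. For Oc90 these were Slc16a9, a monocarboxylate transporter family gene (0.09, beside a median of 0.31 over all genes compared), and Slc26a7, an anion transporter gene (also 0.09). Slc26a7 had 19.3, 27.2, 29.8 and 35.7 CPM in libraries 1 to 4 labelled knockout and 23.5, 21.8, 36.4 and 32.0 CPM in wildtype. As with Oc90, library 1 labelled knockout was lowest and wildtype library 3 highest. Otoa was nearest to Mal and Mt3 (0.05 and 0.06, median 0.22), and Tectb to Pdia5 and Crat (0.04 for both, median 0.17). The nearest were Ccdc8 and Zcchc17 for Tecta (0.02 for both), Agpat1 and Fkbp4 for Otog (0.02 for both), Fnbp1l and Epb41l2 for Otogl (0.01 and 0.02), and Dsel and Vps26a for Epyc (0.02 and 0.03). Among the 7 themselves, the closest pair was Tecta and Otog (0.04) and the farthest Tecta and Oc90 (0.30).

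**Figure D5:**
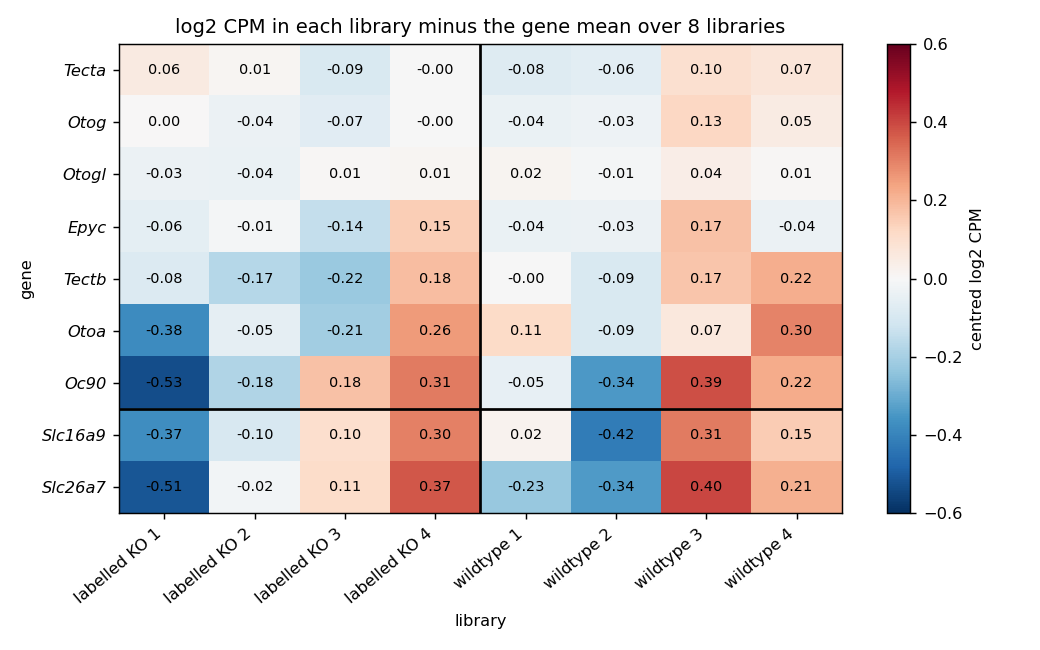
Log2 CPM of each gene in each library minus that gene's mean over the 8 libraries (colour and printed value), libraries labelled Prox1 knockout (labelled KO) left of wildtype. The genes run from Tecta to Oc90, with the 2 genes closest to Oc90 below the line. Tecta, Otog and Otogl stay within 0.13 of their means, whereas Oc90 and its neighbours Slc16a9 and Slc26a7 are low in library 1 labelled knockout and high in wildtype library 3.

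The collagen genes summed to 16176 to 19050 CPM in the libraries labelled knockout, against 17700 to 20648 CPM in wildtype. Col2a1 weighs most in this plain sum, with 9794 ± 686 CPM in the libraries labelled knockout and 10756 ± 645 CPM in wildtype. All 6 collagen genes of the tectorial membrane were tested and 0 passed (edgeR, Benjamini-Hochberg adjustment; 0 without the wildtype libraries 1 and 3). All 6 estimates lay below 0 and their median was -0.11, beside 1.23e-06 for all genes tested, and 4 of 6 lay below 0 when the wildtype libraries 1 and 3 were left out, with a median of -0.05. Col9a1, a chain of the fibril-associated collagen IX, had the smallest p, with 1982 ± 176 CPM in the libraries labelled knockout and 2200 ± 190 CPM in wildtype (log2 fold change -0.15 ± 0.09 SE; adjusted p = 0.664, edgeR). Collagen genes are also transcribed in cochlear mesenchyme, whose 5 markers summed to 1012 to 1082 CPM in the libraries labelled knockout, against 943 to 1210 CPM in wildtype, and the part of mesenchyme was not tested.

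Genes of otoconia formation were considered because of Oc90. Of 9 such genes 7 were tested and 0 passed (edgeR, Benjamini-Hochberg adjustment), 3 estimates lying above 0 and 4 below, with a median of -0.08. Sparc, a collagen- and calcium-binding matrix protein of many tissues, had the smallest p (1846 ± 150 CPM in the libraries labelled knockout and 2072 ± 166 CPM in wildtype; adjusted p = 0.647, edgeR). Otol1, a collagen-like otoconial scaffold protein, had 19.7 ± 2.79 CPM in the libraries labelled knockout and 16.8 ± 3.05 CPM in wildtype (SD, n = 4 each). The genes of 2 proteins required for otoconia did not pass the low-count filter: the proton channel gene Otop1 had 16 counts and the oxidase gene Nox3 23 counts over all 8 libraries. Oc90 itself had 904 CPM or more in every library.

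Among relatives of the individual proteins no gene was called. Of 15 other small leucine-rich proteoglycan genes, the family of Epyc, 14 were tested and 0 passed (edgeR, Benjamini-Hochberg adjustment). All 14 estimates lay below 0, with a median of -0.19 (13 of 14 with upper-quartile scaling, with library size alone, and without the wildtype libraries 1 and 3, where the median was -0.09). The family summed to 819, 847, 831 and 947 CPM in libraries 1 to 4 labelled knockout and 1053, 909, 1020 and 861 CPM in wildtype, highest in wildtype libraries 1 and 3. Periotic mesenchyme markers summed to at most 1082 CPM in a library labelled knockout, against 1210, 1027, 1186 and 943 CPM in wildtype libraries 1 to 4. Endothelium markers summed to at most 149 CPM in a library labelled knockout, against 179.5, 165, 179.3 and 141 CPM in wildtype. Both sums were highest in wildtype libraries 1 and 3 as well, and the part of these cells was not tested. Biglycan (Bgn), a proteoglycan of connective tissue, had 207 to 230.0 CPM in the libraries labelled knockout, against 221 to 288 CPM in wildtype (adjusted p = 0.618, edgeR). Of 11 genes with a zona pellucida domain other than the tectorins, 5 were tested and 0 passed. The smallest p belonged to Eng, the endothelial co-receptor endoglin (71.0 ± 2.83 CPM in the libraries labelled knockout and 77.7 ± 7.24 CPM in wildtype), and Umod had 0 counts in all libraries. Of 9 genes of gel-forming mucins and proteins with von Willebrand D domains, the relatives of the otogelins, 7 were tested, 0 passed and 6 lay above 0 (median 0.18, or 0.04 without the wildtype libraries 1 and 3). The gene with the smallest p there was Fcgbp, a mucus protein, with 2.80 ± 0.25 CPM in the libraries labelled knockout and 3.67 ± 0.81 CPM in wildtype. Strc, the mesothelin relative of Otoa that links outer hair cell bundles to the tectorial membrane, had 10.3 ± 1.86 CPM in the libraries labelled knockout and 12.4 ± 3.30 CPM in wildtype, and 0 of 2 tested relatives of Otoa passed. Of 6 other CEACAM genes 2 were tested and 0 passed, with Ceacam1, an adhesion molecule, at 3.93 ± 0.33 CPM in the libraries labelled knockout and 3.39 ± 0.15 CPM in wildtype. Among 7 proprotein convertases, proteases that mature many secreted proteins, 0 passed, and Pcsk5 had the smallest p (75.1 ± 2.22 CPM in the libraries labelled knockout and 84.6 ± 3.44 CPM in wildtype; log2 fold change -0.17 ± 0.05 SE; adjusted p = 0.493, edgeR).

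Markers of other cells were read beside these lists, and 0 of their genes passed with edgeR after Benjamini-Hochberg adjustment. The smallest p of its list belonged to Myo7a for hair cells (log2 fold change -0.12 ± 0.07 SE), Hey2 for supporting cells (0.42 ± 0.07), Calb1 for the greater epithelial ridge (-0.16 ± 0.06), Pou3f4 for periotic mesenchyme (-0.12 ± 0.06), Tubb3 for neurons (-0.12 ± 0.21), Hba-a2 for blood (-0.54 ± 0.21), Tek for endothelium (-0.21 ± 0.08) and C1qa for macrophages (-0.24 ± 0.13). Hba-a2 was -0.28 without wildtype library 1 and -0.23 without the wildtype libraries 1 and 3, and Myo7a was -0.068 without library 3 labelled knockout. Kcne1, a potassium channel subunit of strial marginal cells, had 1.16 ± 0.50 CPM in the libraries labelled knockout and 7.23 ± 5.23 CPM in wildtype (log2 fold change -2.65 ± 0.51 SE, adjusted p = 0.139, edgeR). Kcne1 passed in 4 of the 17 other fits, among them DESeq2 (adjusted p = 0.0105) and the fit without a filter (adjusted p = 0.0040, edgeR). Without the wildtype libraries 1 and 3 the log2 fold change of Kcne1 was -1.51 (adjusted p = 0.705, edgeR). Hey2 passed with DESeq2 (adjusted p = 3.41e-04) and without a filter (adjusted p = 0.0331, edgeR) but not with the filter (adjusted p = 0.0738, edgeR). Wildtype library 1, highest for the strial sum, held 1264 CPM of Oc90, below wildtype libraries 3 and 4 and above library 2, and the part of strial tissue in the level of Oc90 was not tested.

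Counts of overlapping genes limit the identity of some reads. In the GENCODE M21 annotation an exon of Tecta overlaps Gm47629 on the opposite strand, Epyc overlaps Gm10754 and Ceacam16 overlaps Gm19345 likewise, and Tectb overlaps Mir6715 on the same strand. Gm47629 averaged 35.7 CPM and Gm10754 10.5 CPM, small beside the 5711 CPM of Tecta and 776 CPM of Epyc, whereas Gm19345 averaged 0.0655 CPM beside 0.159 CPM of Ceacam16, and Mir6715 had 0 counts. Since no source used here says whether strand was used in counting, reads of such pairs cannot be told apart. These levels are of reads assigned to each gene, and do not show how many reads the pairs share.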

How the data were processed

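RNA was isolated with the RNeasy kit, and NEBNext Ultra II libraries were made after removal of ribosomal RNA, per the labels' protocols. The submitters' processing notes name the build GRCm39 and the tools HISAT2 2.2.1, cutadapt 4.3, FastQC 0.12.1, DESeq2 and featureCounts. Which annotation and strand setting were used, and how multi-mapped reads were handled, no source used here gives. Deposited by the authors were raw counts per gene, per the file headers, with the mean and SD of each group's counts as a signal, which were not used. They also deposited a DESeq2 table with a log2 fold change, a test score and p-values per gene; its direction, not stated, matches knockout over wildtype as labelled in the sign of Prox1.

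Columns were assigned by the library names in the labels. Genes were kept with filterByExpr (minimum count 10; 20581 of 41079 genes), scaled by TMM and tested with edgeR 4.0.16 (R 4.3.3), genotype being the single factor. SE is the fold change divided by the square root of F, and intervals use the fit's degrees of freedom. CPM uses the TMM factors, and log2 CPM a prior count of 2. Ratios and Ceacam16 were compared by exact permutation over 70 assignments. Exon lengths come from GENCODE M21 (GRCm38) and matched 83.1% of tested genes by symbol. The tests were tried on simulated counts. The members and lists were chosen with earlier results of these data known. Named are the members, the gene with the smallest p of each list (1 marker gene is not reported here), and for each tested member the 2 genes of most similar pattern with mean log2 CPM not under 2 and a symbol that is no clone name; Otol1, Otop1, Nox3 and Umod were chosen after their values were seen. Alternatives were RLE, upper-quartile and no scaling, no filter and a stricter filter (50 counts in 4 libraries), DESeq2 1.42.0, limma-voom (limma 3.58.1), a replicate block, each library left out, and the wildtype libraries 1 and 3 left out. Libraries within a group all differed by more than sampling noise (chi-square per degree of freedom of at least 9.85).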

Additional observations from a re-analysis of the deposited data

Results flagged for a closer look

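Epyc in wildtype library 3, at 873 CPM, lay far from the other wildtype libraries, which held 753 to 756 CPM. The count ratio of Tecta over Tectb in library 4 labelled knockout, at 3.70, lay below the other libraries of that group, at 4.61 to 4.77. In 20 groups of 4 values checked in this way (8 genes and 2 ratios, in both groups), chance gives about 1 such value, and 2 were found.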

How the results depend on the processing

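None of the 7 tested genes passed under any of the 17 other fits, with adjusted p-values of at least 0.242 (edgeR, DESeq2 or limma-voom, Benjamini-Hochberg adjustment). Over all genes, 19 were called, against 36 without a filter, 85 with DESeq2, 9 without the wildtype libraries 1 and 3, 10 at an adjusted p of 0.01, and 11 to 27 with a library left out. With library size alone, 4 were called higher and 12 lower, beside 7 and 12. With a library left out, Otoa ran from -0.31 to -0.092 and Tectb from -0.24 to -0.095. Tecta changed sign with upper-quartile scaling (0.0010) and library size alone (2.18e-04), and ran from -0.043 to 0.016 with a library left out. Without the wildtype libraries 1 and 3 the sign changed for Epyc (0.023), Oc90 (0.013) and the CPM difference of Ceacam16 (0.025). With a library left out, Epyc ran from -0.089 to 0.024, Oc90 from -0.23 to 0.036, Ceacam16 from -0.055 to 0.017 CPM, Tubb3 from -0.29 to 0.045, log2 Tecta over Tectb from 0.094 to 0.22 and log2 Otog over Otogl from -0.049 to 1.78e-04. The cause of these changes was not tested. Same-numbered libraries of the groups did not deviate together (correlations of 0.11, 0.21, -0.28 and -0.14 for numbers 1 to 4), so the numbers were not taken as pairs. With the replicate number as a block, 15 genes were called, 0 of them among the 7. The depth limits Ceacam16, with 19 counts in the libraries labelled knockout and 25 in wildtype. Counting intervals are not given, since reads without molecular identifiers are not independent.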
